A study of Arabidopsis thaliana with 12 samples.

Results

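The cysteine-rich receptor-like kinases (CRKs) of Arabidopsis thaliana were followed in leaf RNA of trm5-1 and wild type plants. The members were the 40 loci of a list of CRK genes given by locus number, and all 40 were among the 33610 genes of the count table. Of the 40 members, 37 passed the filter on low counts and were tested, among 19408 tested genes, and CRK25 (AT4G05200), CRK30 (AT4G11460) and CRK33 (AT4G11490) did not pass. The trm5-1 plants are homozygous for a T-DNA insertion in the gene of the tRNA methyltransferase TRM5, which methylates guanosine 37 of some tRNAs, and they are in the Columbia background. Wild type plants were of the Columbia accession. Each genotype had 3 leaf libraries, numbered 2, 3 and 4, from plants of 20 days according to the sample labels and the methods, whereas the extraction text of the labels speaks of seedlings of 10 days. The mutant is represented by 1 insertion line. The methods call them biological replicates without saying how plants were divided among them, and the labels do not say either, so the p-values measure the spread between these libraries.

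A CRK protein has an extracellular region with a conserved arrangement of cysteines (the DUF26 domain), a membrane-spanning segment and an intracellular serine/threonine kinase. Plants use such receptor kinases to sense signals at the cell surface, and CRK genes are known for responding to pathogens, to salicylic acid and to reactive oxygen species. In Arabidopsis the family grew largely by tandem duplication, so that close relatives lie next to each other. The short word TTGAC is the core of the W-box, the sequence that WRKY transcription factors bind, and WRKY factors are classical regulators of genes that respond to salicylic acid.

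In the RefSeq annotation of TAIR10.1, 30 of the 40 members lay in 3 arrays on chromosome 4, each named here by its first locus. The array at AT4G04490 held 5 members (CRK36 to CRK40) between positions 2231717 and 2292965. The array at AT4G11460 held 5 (CRK30 to CRK34, positions 6963521 to 6989793), with no CRK33 or CRK30 among the tested genes. AT4G11500, an untested CRK gene outside the list of 40, also falls inside it by locus number. The array at AT4G23130 held 20 (CRK5 to CRK24, positions 12117491 to 12191704). CRK28 and CRK29 formed a pair on chromosome 4, CRK2 and CRK3 a pair on chromosome 1, and 6 had no neighbour among the 40. One of these, CRK41 (AT4G00970), is next by locus number to AT4G00960, a CRK gene outside the list that is described further below. Reads were mapped by the authors to TAIR10 and the count table holds no coordinates, so the positions come from RefSeq by locus number.

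Stretches before the annotated gene starts are shown for 9 of the 10 members called higher in trm5-1. They were cut around an occurrence of TTGAC, so the presence of the word in them was fixed by the choice of stretch. CRK40, the other called member, is not shown because no such word was found near its start. Each line gives 30 bases of RefSeq TAIR10.1 in the direction of transcription, and the capitals mark TTGAC or GTCAA, its reading on the other strand.
CRK36: gtcaccctaaaaGTCAAgtgttcgtgatag
CRK37: acacctaGTCAAGTCAActagtacccattt
CRK38: gccatctttgaaGTCAAccattactcaaat
CRK39: ccattttGTCAAGTCAAgtagtgtgtactc
CRK32: caaccatgctttTTGACaaaatcaacgacc
CRK7: cattgagtttgaTTGACgactgactttaaa
CRK8: ggtttaggcctgGTCAAatgtatataaacc
CRK20: gactttctttgaTTGACttatagccgtcag
CRK23: ttttttggtaagTTGACtgacgtaaaagaa
The CRK36 stretch is chr4:2234749-2234778 on the minus strand. The others are on the plus strand, at chr4:2238281-2238310 (CRK37), chr4:2241957-2241986 (CRK38), chr4:2259468-2259497 (CRK39), chr4:6971294-6971323 (CRK32), chr4:12125568-12125597 (CRK7), chr4:12129406-12129435 (CRK8), chr4:12174627-12174656 (CRK20) and chr4:12185233-12185262 (CRK23). CRK37 and CRK39, which are not direct neighbours, both carried GTCAA 2 times in a row. In CRK39 the last of these words began 18 bases before the annotated start, against 77 bases in CRK37.

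Over windows from 250 bases before to 50 bases after the annotated start, searched on both strands, TTGAC occurred in 30 of 40 members (75.0%), against 50.5% of 27443 protein-coding genes. At least 2 occurrences were found in 17 members (42.5%), against 17.7% of protein-coding genes. TGACG, the core word of TGA factor sites, was found in 16 members (40%), against 23.1%. A TTGACG stretch holds both words and was counted for each. Members of an array are duplicates of each other, so the 40 windows are not independent. For CRK14 to CRK17 and CRK33 exonic and coding lengths were equal, with no untranslated bases annotated before the start codon, so their windows are placed differently. Of the 10 called members 9 had TTGAC, and of the 30 others 21. It occurred at least 2 times in 4 of the 10 called members and in 13 of the 30 others. CRK11 had the most, with 7, and was not called. The 10 windows without TTGAC were those of CRK40, which was called, and of CRK2, CRK3, CRK12, CRK13, CRK21, CRK22, CRK28, CRK30 and CRK45, which were not, and a match or its absence is a description of these letters only.

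The libraries held 21450866, 25256890 and 26927531 counts in trm5-1 replicates 2, 3 and 4, and 14954658, 25707387 and 26264021 in those of wild type. Levels are counts per 1000000 counts (CPM) on library sizes scaled by TMM. TRM5 itself (AT3G56120) had 4.92, 2.75 and 4.08 CPM in trm5-1 against 13.3, 22.8 and 19.7 CPM in wild type. As a check of the labelled tissue, 4 leaf markers summed to 10600, 4720 and 7880 CPM in trm5-1 against 13800, 21100 and 18400 CPM in wild type, with 1 of the 4 called (lower). Among them RBCS1A, the small subunit of Rubisco, was between 2900 and 7020 CPM in trm5-1 and between 8420 and 9900 CPM in wild type. CAB2, a chlorophyll-binding protein, had 17.7, 14.4 and 13.5 CPM in trm5-1, against 47.0, 7910 and 4640 CPM in wild type, and was the one called, and wild type replicate 2 stood apart from the other wild type libraries. The summed CPM of 4 flower markers was 0.886, 0.61 and 0.889 in trm5-1 against 2.44, 8.4 and 6.17 in wild type, with 2 of the 4 tested, both called lower, and AP1 at 0 in every trm5-1 library. That of 4 root markers was 0.394, 0.0763 and 5.26 in trm5-1 against 0.222, 21.3 and 13.7 in wild type (EXPA7 at 0 in all libraries), and that of 3 seed markers was at most 0.187. The part of these marker levels in the results was not tested.

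The wild type libraries also differed from each other in the CRK family. The summed level of the members was 3090, 2950 and 3030 CPM in trm5-1 replicates 2, 3 and 4, against 2380, 796 and 1420 CPM in those of wild type. Within wild type, 32 of the 37 tested members were highest in replicate 2 and lowest in replicate 3, whereas replicate 3 was the lowest library for 43.1% of all tested genes. The median distance between replicates 2 and 3, as the size of a log2 ratio, was 0.48 for the members in trm5-1 and 2.04 in wild type. Over all tested genes it was 0.36 in trm5-1 and 0.7 in wild type. Replicate 4 lay between the other two for 30 of 37 members in trm5-1 and for 37 of 37 in wild type (68.4% and 81.3% of all tested genes). Among genes with more than a 4-fold difference between replicates 2 and 3, replicate 4 lay between them for 614 of 663 in trm5-1 and 2475 of 2530 in wild type. Whether replicate 4 is independent of replicates 2 and 3 was not tested. Counts of called genes are therefore also given without replicate 4 of both genotypes, where the smallest adjusted p of any gene was 0.544 (edgeR). The adjusted p of a single gene is that of the fit with all 6 libraries unless another is named. It thus takes replicate 4 as a separate library.

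CRK mRNAs were mostly more abundant in trm5-1 leaves. Of the 37 tested members, 10 were called higher by the quasi-likelihood test of edgeR (p under 0.05 after the adjustment of Benjamini and Hochberg over all tested genes), which is 27%, against 4.3% of all tested genes called higher. These were CRK7 (AT4G23150), CRK8 (AT4G23160), CRK20 (AT4G23280), CRK23 (AT4G23310), CRK32 (AT4G11480), CRK36 (AT4G04490), CRK37 (AT4G04500), CRK38 (AT4G04510), CRK39 (AT4G04540) and CRK40 (AT4G04570). No member was called lower (0 of 37, against 7.15% of all tested genes), although 1 (CRK21, AT4G23290) was lower at an unadjusted p under 0.05 (19.2% of all tested genes) and was called lower by DESeq2 (16.0% of all tested genes). At an unadjusted p under 0.05, 20 members were higher, against 13.6% of all tested genes. The log2 fold change was above 0 for 33 members and below 0 for 4, with a median of 1.04 over the tested members and 0.0 over all tested genes. In 21 members (56.8%, against 19.7% of all tested genes) every trm5-1 library was above every wild type library, and in 1 (2.7%, against 20.0%) every trm5-1 library was below. In 12 members the lowest trm5-1 library was more than 2-fold above the highest wild type library, as it was for 2.35% of all tested genes. From bulk leaf RNA, more mRNA per cell and another mix of cells cannot be told apart.

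The count of called members depended on single libraries. It was 23 without wild type replicate 2 and 13 without wild type replicate 3, when 16.2% and 2.13% of all tested genes were called higher. Without wild type replicate 4 it was 0 (0.0% of all tested genes), and 17 members had an unadjusted p under 0.05 (7.62% of all tested genes). Without trm5-1 replicate 2 it was 1, CRK37 (0.738% of all tested genes). Without trm5-1 replicate 3 it was 0 (0.104% of all tested genes), and 20 members had an unadjusted p under 0.05 (9.95%). Without trm5-1 replicate 4 it was 0 as well (0.0%), and 19 members had an unadjusted p under 0.05 (8.23%). Without replicate 4 of both genotypes no gene of the table was called higher (0.0%) or lower (0.0%), the smallest adjusted p of any gene was 0.544 (edgeR), and 11 members were higher at an unadjusted p under 0.05 (3.16%). With DESeq2 20 members were called higher, against 10.4% of all tested genes. The 10 called members had 127 values under other settings, all with a log2 fold change above 0, and 67 of them passed the threshold. The size of the differences varied with the wild type library as well. The mean trm5-1 level of the 9 called members with a count in wild type replicate 2 had a median log2 ratio of 2.52 over that library alone. Over wild type replicate 3 alone the median log2 ratio of all 10 was 5.18. For 34 of 37 members the trm5-1 mean was above wild type replicate 3, and for 26 of the 36 with a count in wild type replicate 2 it was above that library.

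**Figure D1:**
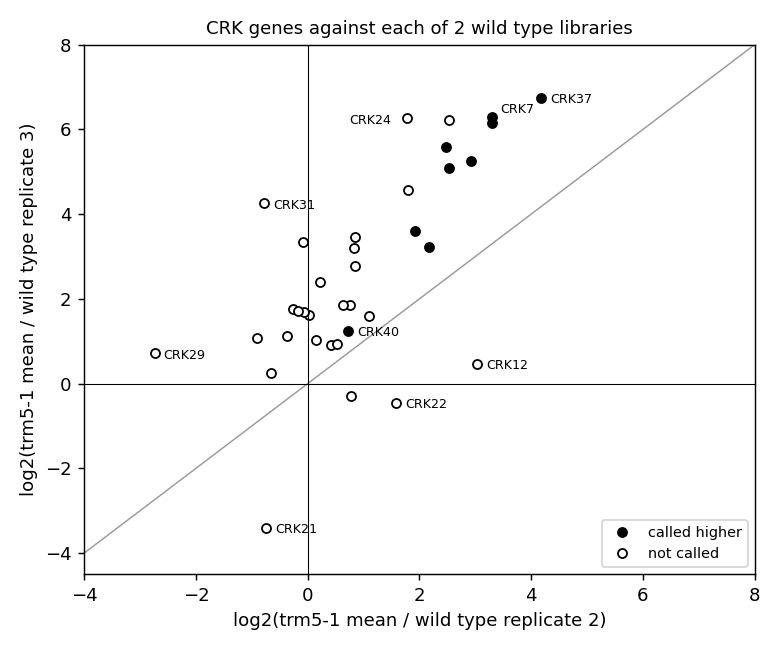
Each point is a tested CRK gene with a count in both libraries: the log2 ratio of its mean trm5-1 CPM over wild type replicate 2 (horizontal axis) and over wild type replicate 3 (vertical axis). Filled points are genes called higher in trm5-1, and most points lie above the grey diagonal of equal ratios, with CRK12, CRK22, CRK34 and CRK21 below it.

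In the array at AT4G04490 all 5 members were called higher (4.3% of all tested genes), with a median log2 fold change of 3.58. CRK36, a receptor kinase with roles in abscisic acid signalling and immunity, had 53.8, 68.9 and 58.8 CPM in trm5-1 against 10.5, 1.77 and 5.72 CPM in wild type. The lowest trm5-1 library was 5.11 times the highest wild type library (log2 fold change 3.36, standard error 0.61, adjusted p = 0.0312, edgeR). CRK37 had the largest log2 fold change of the family, 5.2 (standard error 0.81, adjusted p = 0.0259, edgeR) and was the member still called without trm5-1 replicate 2. Its levels were 10.3, 44.2 and 25.3 CPM in trm5-1 and 1.48, 0.248 and 0.636 CPM in wild type, so both genotypes spread widely without overlapping. CRK38 had 5.71, 9.23 and 5.45 CPM in trm5-1 against 0.889, 0.177 and 0.711 CPM in wild type (log2 fold change 3.58, standard error 0.58, adjusted p = 0.0273, edgeR). CRK39 had 17.2, 24.9 and 19.3 CPM in trm5-1 against 3.7, 0.425 and 0.972 CPM in wild type (log2 fold change 3.69, standard error 0.75, adjusted p = 0.0375, edgeR). The genotypes of both genes were separate, and wild type replicate 2 was again the highest wild type library. CRK40, the last gene of the array, had its highest level per length, at 63.5 CPM per kb of exon in trm5-1 and 32.3 in wild type. It had 188, 180 and 174 CPM in trm5-1 and 110, 76.6 and 88.7 CPM in wild type. The difference in log2 was 0.98 (standard error 0.19, adjusted p = 0.0344, edgeR), the smallest of the called members.

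Genes around the arrays were set beside them. Of the 10 tested genes that flank this array, 5 on each side, 2 were called higher, PMP22 with a log2 fold change of 0.83 and ATG8B with 0.94, and the median of the 10 was -0.48. Both calls were lost without any 1 library other than wild type replicate 2, and ATG8B also with upper quartile factors, no filter or a minimum of 10 counts in every library. The flanks of the array at AT4G11460 had a median of 0.03 with 0 of 10 called, and those of the array at AT4G23130 had a median of -0.2 with 1 of 10 called, the aquaporin PIP1;5, which fell (log2 fold change -1.32). PIP1;5 was not called without wild type replicate 4, trm5-1 replicate 3 or trm5-1 replicate 4, and none of the 3 was called with a replicate block or without replicate 4 of both genotypes. The 4 tested genes that lie inside the arrays without being CRK members had 0 called by edgeR and 0 by DESeq2, and 0 had an unadjusted p under 0.05 in either test.

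**Figure D2:**
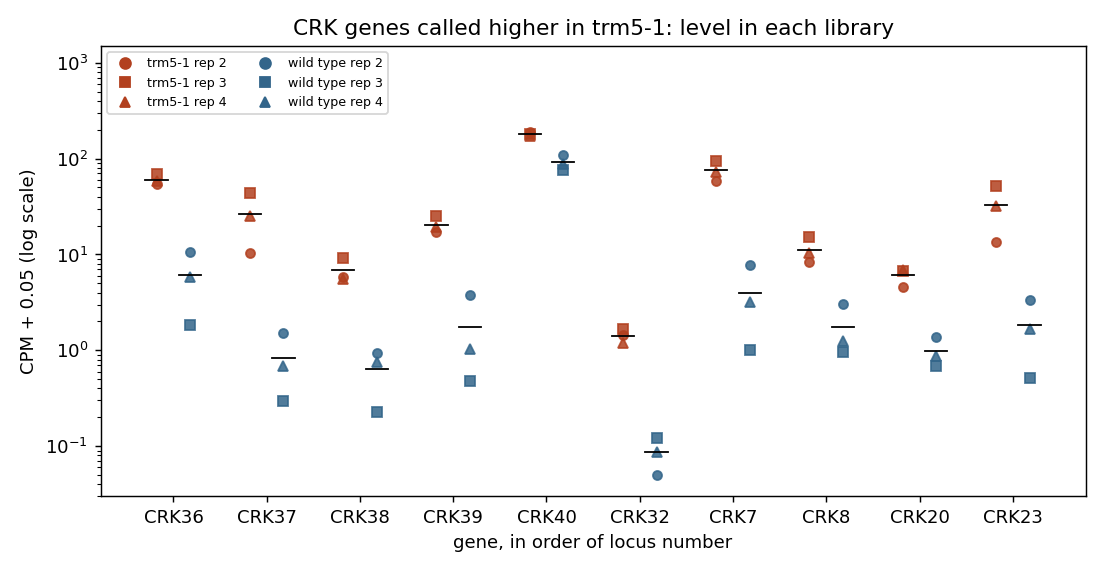
CPM + 0.05 on a log scale for the 10 CRK genes called higher, with trm5-1 libraries left of wild type libraries in each gene, a symbol for each replicate and a bar for the mean. The genotypes do not overlap in any of the 10, and wild type replicate 3 is the lowest wild type library in 9 of them.

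In the array at AT4G11460 only 1 of the 3 tested members was called higher (4.3% of all tested genes), and 0 were called lower. CRK32 had 28, 42 and 31 counts in trm5-1 and 0, 2 and 1 in wild type, so that the genotypes did not overlap. Its difference in log2 was 4.84 (standard error 0.56, adjusted p = 0.0174, edgeR). With so few wild type counts the summed ratio of 101 to 3 counts, scaled for library size, was 31.3, with a 95% counting interval of 10.4 to 155. CRK31, which precedes it with 87.0% identical coding sequence, had 7.68, 4.31 and 6.37 CPM in trm5-1 and 10.5, 0.319 and 5.01 CPM in wild type. Wild type alone spanned the trm5-1 range (log2 fold change 0.24, standard error 0.97). CRK34 had 4.92, 3.66 and 3.63 CPM in trm5-1 and 2.37, 5.0 and 3.25 CPM in wild type, which overlap. CRK30 had 0 counts in each trm5-1 library and 0, 34 and 14 in wild type. Taken over the groups and against a floor of 3 counts this is at least 17.2-fold lower in trm5-1, but wild type replicate 2 was also at 0, so the genotypes overlap. Without wild type replicate 2 CRK30 passed the filter and was called lower (adjusted p = 0.0202, edgeR). CRK33 had at most 2 counts in any library, and CRK25, a member outside the arrays, had 0 in each trm5-1 library and 0, 3 and 7 in wild type.

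The array at AT4G23130 was mixed. Of its 20 members, all tested, 4 were called higher, against 4.3% of all tested genes. In 12 every trm5-1 library was above every wild type library (19.7% of all tested genes), and in 1 every trm5-1 library was below (20.0%). Log2 fold changes ran between -2.67 and 4.3 with a median of 1.11. The called members were CRK7 and CRK8 near its start and CRK20 and CRK23 near its end, and none of the 11 genes CRK9 to CRK19 was called by edgeR. DESeq2 called 4 of these 11 higher (CRK9, CRK15, CRK17 and CRK18), against 10.4% of all tested genes. The same 4 were higher at an unadjusted p under 0.05 in edgeR (13.6% of all tested genes).

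**Figure D3:**
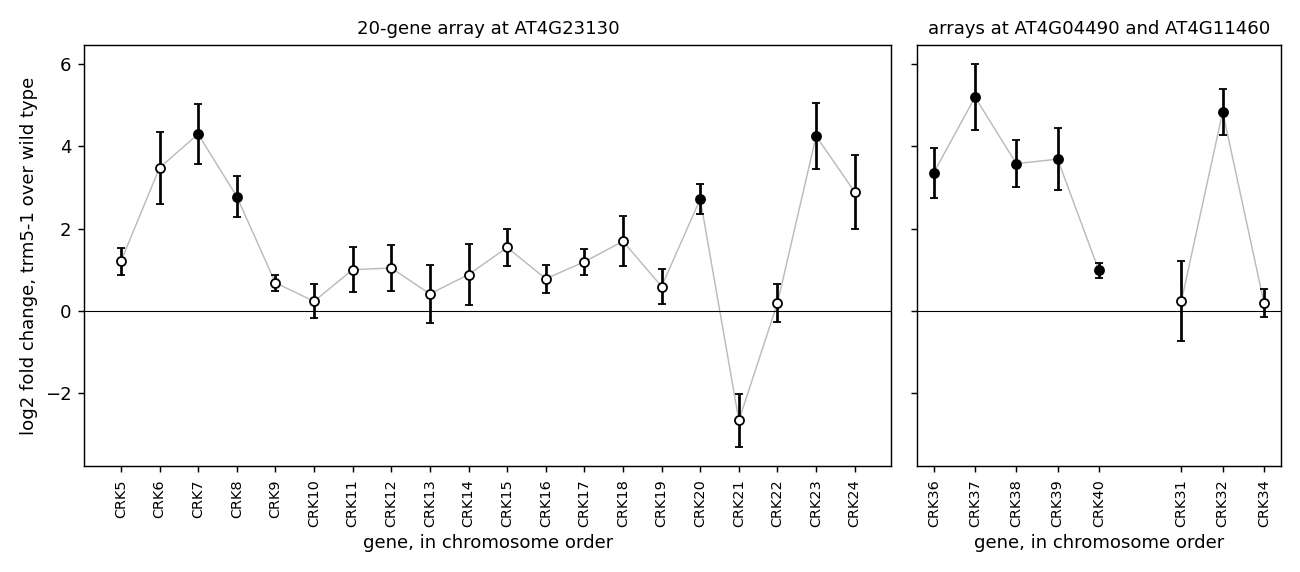
Log2 fold change of trm5-1 over wild type for the tested CRK genes of the 3 arrays on chromosome 4, in chromosome order, with bars of 1 standard error. Filled points are genes called higher. In the 20-gene array CRK7 and CRK23 reach 4.30 and 4.25, and CRK21 is at -2.67 between CRK20 at 2.72 and CRK22 at 0.19.

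At the start of this array, CRK5, whose overexpression in Arabidopsis is known to enhance defence, had 35.0, 58.2 and 46.9 CPM in trm5-1 against 27.9, 12.9 and 20.2 CPM in wild type. The genotypes were separate by 1.26 times between the nearest libraries (log2 fold change 1.20, adjusted p = 0.0619, edgeR). CRK6 and CRK7 are known for roles in tolerance of extracellular oxidative stress. CRK6 had 127, 241 and 177 CPM in trm5-1 against 31.3, 2.44 and 15.2 CPM in wild type, a log2 fold change of 3.48 (standard error 0.87) that missed the threshold (adjusted p = 0.0524, edgeR). Its wild type libraries differed 12.8-fold between replicates 2 and 3. CRK7 was called: it had 59.0, 94.0 and 73.2 CPM in trm5-1 against 7.71, 0.957 and 3.18 CPM in wild type (log2 fold change 4.30, standard error 0.74, adjusted p = 0.0292, edgeR). CRK8 had 8.32, 15.1 and 10.2 CPM in trm5-1 against 2.96, 0.921 and 1.20 CPM in wild type (log2 fold change 2.78, standard error 0.50, adjusted p = 0.0312, edgeR). The values of both genes were separate between genotypes. CRK9, the member with the shortest coding sequence (798 bases), had 90.5, 70.2 and 82.8 CPM in trm5-1 against 61.2, 43.2 and 47.9 CPM in wild type (log2 fold change 0.68, adjusted p = 0.0652, edgeR).

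The log2 fold changes of the middle members, CRK9 to CRK19, ran between 0.23 and 1.69. CRK10 was the member with the highest level per length in both genotypes, at 185 CPM per kb of exon in trm5-1 and 157 in wild type, and its genotypes overlapped (log2 fold change 0.23). CRK14 followed at 135 and 73.3 CPM per kb in trm5-1 and wild type, also overlapping. Among the members of the middle that did not overlap, CRK15 had 37.4, 35.5 and 36.0 CPM in trm5-1 against 20.2, 5.31 and 12.2 CPM in wild type (log2 fold change 1.54, adjusted p = 0.0712, edgeR). CRK17 had 129, 96.9 and 113 CPM in trm5-1 against 72.6, 31.2 and 45.0 CPM in wild type (log2 fold change 1.19, adjusted p = 0.0632, edgeR). CRK18 had 231, 314 and 269 CPM in trm5-1 against 152, 24.5 and 76.5 CPM in wild type (log2 fold change 1.69, adjusted p = 0.117, edgeR). In these 3 genes wild type replicate 2 was nearest to the mutant. CRK12 was the exception in its order of libraries, with 6.35, 8.85 and 6.60 CPM in trm5-1 against 0.889, 5.24 and 4.26 CPM in wild type, where replicate 2 was the lowest (log2 fold change 1.04, adjusted p = 0.253, edgeR). CRK11, CRK13, CRK14, CRK16 and CRK19 overlapped, with log2 fold changes between 0.41 (CRK13) and 1.00 (CRK11). CRK13 is known from its overexpression to raise salicylic acid and resistance in Arabidopsis, and it had 11.6, 2.21 and 7.93 CPM in trm5-1 and 8.74, 2.13 and 5.61 CPM in wild type.

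At the far end, neighbours differed in the sign of their log2 fold change. CRK20, known in Arabidopsis as a gene of pathogen response, had 4.48, 6.71 and 6.82 CPM in trm5-1 against 1.33, 0.638 and 0.823 CPM in wild type. Its difference in log2 was 2.72 (standard error 0.36, adjusted p = 0.0213, edgeR). CRK21, the next gene, lies on the other strand with its end facing that of CRK20, and it had 7.58, 4.23 and 6.15 CPM in trm5-1 against 10.1, 63.5 and 40 CPM in wild type. Every trm5-1 library of CRK21 was lower, but the nearest wild type library was close, and the test was just over the threshold (log2 fold change -2.67, standard error 0.65, adjusted p = 0.0505, edgeR). Without wild type replicate 2 CRK21 was called lower (adjusted p = 0.00321, edgeR, with 21.5% of all tested genes called lower), and without each other library in turn it was not called. CRK22 had 17.6, 17.8 and 17.8 CPM in trm5-1 and 5.93, 24.4 and 15.9 CPM in wild type, so that trm5-1 fell inside the wild type range. CRK23 had 13.6, 52.3 and 31.9 CPM in trm5-1 against 3.33, 0.461 and 1.61 CPM in wild type (log2 fold change 4.25, standard error 0.81, adjusted p = 0.0343, edgeR). Its genotypes were separate by 4.09 times. CRK24 had 26.2, 28.2 and 27.1 CPM in trm5-1 against 7.93, 0.354 and 3.14 CPM in wild type, a 22.4-fold range within wild type (log2 fold change 2.89, standard error 0.89, adjusted p = 0.0819, edgeR).

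Outside the arrays, 0 of 9 tested members were called by edgeR. CRK4, CRK26 and CRK45 were higher at an unadjusted p under 0.05 (13.6% of all tested genes) and were called higher by DESeq2 (10.4%). CRK4, which is known for cell death upon overexpression, had 206, 286 and 246 CPM in trm5-1 against 71.0, 10.3 and 33.4 CPM in wild type. The genotypes were separate by 2.89 times, and the test was just over the threshold (log2 fold change 2.69, standard error 0.67, adjusted p = 0.0517, edgeR). CRK26 had 3.79, 8.92 and 5.93 CPM in trm5-1 against 2.89, 2.06 and 2.58 CPM in wild type (log2 fold change 1.32, adjusted p = 0.0636, edgeR). CRK45, a cytoplasmic kinase of the family that binds CRK36 in abscisic acid signalling, had 90.1, 68.3 and 79.7 CPM in trm5-1 against 44.7, 8.61 and 22.1 CPM in wild type (log2 fold change 1.67, adjusted p = 0.0969, edgeR). CRK2 phosphorylates the oxidase RBOHD in Arabidopsis, and it overlapped between genotypes, as did CRK3, CRK41 and CRK42 (log2 fold changes of 0.69, 0.55, 0.54 and -0.23). CRK28 and CRK29 are known to associate with immune receptor complexes at the membrane. CRK29 had 17.9, 21.1 and 16.7 CPM in trm5-1 and 124, 11.4 and 50.9 CPM in wild type, where wild type replicate 3 was below all trm5-1 libraries (log2 fold change -1.74, adjusted p = 0.171, edgeR). Without wild type replicate 3 CRK29 was called lower (log2 fold change -2.24, adjusted p = 0.0349, edgeR), as were 2.68% of all tested genes. CRK28 had 11.8, 9.88 and 12.1 CPM in trm5-1 and 21.2, 5.31 and 11.3 CPM in wild type, and its log2 fold change of -0.15 changed sign without wild type replicate 2 (0.46).

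Neighbours were compared within each library, as the log2 ratio of the counts of the first gene over the second with 0.5 added to each, which leaves out the library size. Of 27 pairs of consecutive tested members, 14 had ratios that did not overlap between genotypes (51.9%), against 40.4% of 19237 pairs of consecutive tested genes over all chromosomes measured in the same way. With 3 libraries against 3, a two-sided exact permutation test cannot go below p = 0.1, which these 14 pairs reached, and the smallest value after Benjamini-Hochberg adjustment over the 27 pairs was 0.193, so no pair passed. The largest difference was that of CRK20 over CRK21, with log2 ratios of -0.76, 0.66 and 0.15 in trm5-1 against -2.88, -6.60 and -5.57 in wild type. The mean ratio was 5.04 higher in trm5-1, and CRK21 had more counts than CRK20 in every wild type library. Their coding sequences were 58.9% identical and lie on opposite strands.

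Identity was taken over the aligned bases of 2 coding sequences only. Among neighbours with at least 80% identity, 5 of 8 pairs had ratios that did not overlap between genotypes. This stands against 40.4% of consecutive tested genes over all chromosomes, and none of these pairs passed the adjusted test. CRK39 and CRK40, with 86.6% identical coding sequences, had log2 ratios of -3.45, -2.85 and -3.17 in trm5-1 against -4.88, -7.43 and -6.48 in wild type. CRK19 and CRK20, the most alike pair at 89.6%, had log2 ratios of 5.34, 4.83 and 4.8 in trm5-1 against 7.16, 6.48 and 7.14 in wild type. CRK8 and CRK9, at 88.8% over 795 aligned bases, had log2 ratios of -3.44, -2.21 and -3.02 in trm5-1 against -4.35, -5.53 and -5.30 in wild type. The coding sequence of CRK8 has 3132 bases, so most of it is not covered by that identity. In each of these 3 pairs the genotypes were separate, as they were for CRK7 over CRK8 (1309 aligned bases) and for CRK28 over CRK29. CRK32 over CRK34 had log2 ratios of -1.82, -1.18 and -1.64 in trm5-1 against -6.02, -5.82 and -5.87 in wild type. By locus number the untested CRK genes CRK33 and AT4G11500 lie between them. The wild type counts of CRK32 were 0, 2 and 1, so its wild type ratios rest largely on the added 0.5. Their small spread is therefore no measure of precision. CRK22 over CRK23 had 0.37, -1.55 and -0.84 in trm5-1 against 0.82, 5.67 and 3.29 in wild type, and the nearest libraries of the genotypes were both numbered 2. By contrast, CRK6 over CRK7 had log2 ratios of 1.11, 1.36 and 1.27 in trm5-1 and 2.02, 1.34 and 2.25 in wild type, which overlap, and in both genes every trm5-1 library was above every wild type library.

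Identity over the 26 adjacent pairs ran between 54.8% and 89.6%. Of the 8 pairs at 80% or more, 5 did not overlap between genotypes, and of the 18 below 80%, 8 did not. Spearman's rho of identity with the distance in log2 fold change was 0.2 over the 26 pairs, which share genes and libraries and are described without a test. The median distance in log2 fold change was 1.36 between neighbours and 1.71 over the 639 other pairs of tested members.

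**Figure D4:**
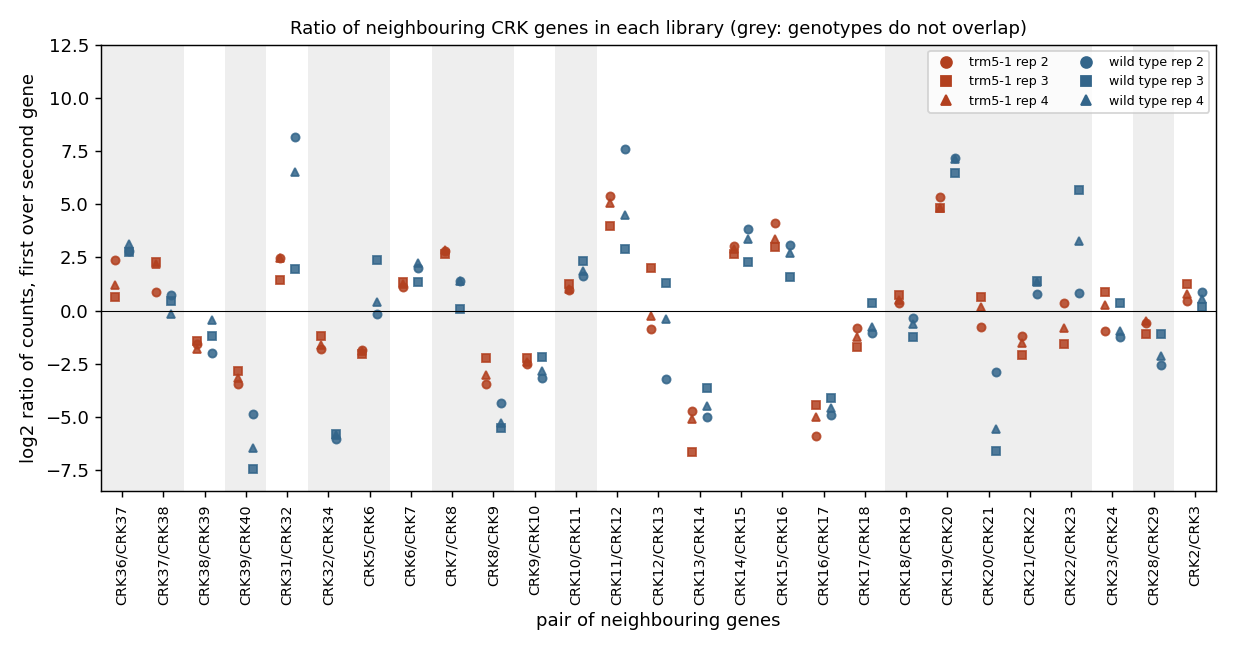
Log2 ratio of counts (0.5 added) of the first over the second gene for 27 pairs of consecutive CRK genes, with trm5-1 libraries left of wild type libraries and a symbol for each replicate. Grey bands mark the 14 pairs whose genotypes do not overlap, among them CRK20/CRK21, CRK22/CRK23 and CRK32/CRK34. CRK32 had 0, 2 and 1 counts in wild type, so its ratios there rest largely on the added 0.5.

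Relatives this close can share reads, and how the authors counted reads that fit more than one gene is not given in the sources used here. Of all 50-base words in the exons of a member, the share found elsewhere in the genome was 22.1% for CRK6, 16.2% for CRK8, 16.2% for CRK22 and 15.4% for CRK13, and 6.73% or less for every other member. The values of these 4 genes are the most uncertain in this respect. The annotated gene spans of CRK16 and CRK17, introns included, overlapped by 1190 bases on the same strand, and those of CRK28 and CRK29 by 470. The overlap of their exons alone was not measured. CRK10 and CRK11 overlapped by 32 bases on opposite strands, and the TruSeq RNA kit named in the labels does not mark strand, so reads there cannot be told apart. CRK25, CRK42, CRK19 and CRK45 overlapped genes outside the family by 492, 130, 102 and 40 bases. CRK29 also overlapped AT4G03065, which is not a member, by at most 470 bases.

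Genes related to the family by structure or pathway were listed beside it. Of 6 further CRK genes, 3 were tested with a median log2 fold change of 1.52, and 0 were called by edgeR, while DESeq2 called 1 (AT4G00960, log2 fold change 1.52, also the 1 gene at an unadjusted p under 0.05). The log2 fold changes of the others were 1.56 for CRK27 (standard error 0.68) and 0.63 for AT1G70740. The plasmodesmata-located proteins carry the same DUF26 region without a kinase and sit at the channels between cells. Of 7 tested, 2 fell, PDLP2 (log2 fold change -2.30) and PDLP3 (-3.26), with adjusted p = 0.0481 and 0.0293 by edgeR, and 0 rose (0 also at an unadjusted p under 0.05 and with DESeq2). Of all tested genes 7.15% were called lower. Both were still called without wild type replicate 2, where 1 other of the list was called higher, and PDLP3 alone was called without wild type replicate 3 or with a minimum of 10 counts in every library. Neither was called without wild type replicate 4, without any 1 trm5-1 library, with a replicate block or without replicate 4 of both genotypes. PDLP3 had 2.85, 2.40 and 1.96 CPM in trm5-1 against 7.93, 35.6 and 25.4 CPM in wild type. It was opposite to most CRK members in direction and in the order of the wild type libraries, whereas CRK21 shared both with it. HWI1, also known as PDLP5, had a log2 fold change of 1.15 with overlapping genotypes. In 3 of the list every trm5-1 library was below every wild type library (20.0% of all tested genes). PDLP7 was among them (log2 fold change -0.98, unadjusted p = 0.0491, edgeR). In 1, PDLP6, every trm5-1 library was above (log2 fold change 0.4), as in 19.7% of all tested genes.

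Of 8 receptors, partners and oxidases (FLS2, EFR, BAK1, BIK1, CERK1, SOBIR1, RBOHD and RBOHF), 0 were called by edgeR or DESeq2, 0 had an unadjusted p under 0.05 in edgeR and 1 in DESeq2. Of the 8, 3 were called higher without wild type replicate 2, against 16.2% of all tested genes, and 6 had an unadjusted p under 0.05. Their median log2 fold change was 0.64, with FLS2, the flagellin receptor, lowest at 0.14 and RBOHF highest at 1.39. Of 12 genes of salicylate synthesis and response, 7 rose (4.3% of all tested genes were called higher), with a median of 1.46. Of the 12, 0 fell (0 also at an unadjusted p under 0.05 and with DESeq2), against 7.15% of all tested genes called lower. The lists were chosen with earlier results of these data known, so these counts are a description. EDS16, the isochorismate synthase of salicylic acid synthesis, had 265, 358 and 288 CPM in trm5-1 against 59.3, 20.3 and 35.1 CPM in wild type (log2 fold change 2.99, adjusted p = 0.0236, edgeR). PR1, the classical marker of salicylic acid response, had 162, 196 and 171 CPM in trm5-1 against 5.56, 1.20 and 2.69 CPM in wild type (log2 fold change 5.84, adjusted p = 0.0144, edgeR). In both genes, as in most CRK members, wild type replicate 3 was lowest and the genotypes were separate. The others that rose were PBS3, SAG101, NPR4, BGL2 and PR5 (log2 fold changes between 0.70 and 4.01), and NPR1, a receptor and coactivator of salicylic acid response, had the smallest at 0.09. Of 9 WRKY factors 3 rose, WRKY46 (1.95), WRKY54 (1.53) and WRKY60 (2.64), and 0 fell (0 also at an unadjusted p under 0.05 and with DESeq2). The shares of all tested genes were again 4.3% called higher and 7.15% called lower. The smallest value was that of WRKY33 (0.69), and the median was 1.48. Without wild type replicate 2, 11 of the 12 salicylate genes and 7 of the 9 WRKY factors were called higher, against 16.2% of all tested genes. Without wild type replicate 4, trm5-1 replicate 3 or trm5-1 replicate 4 none of either list was called higher. Without replicate 4 of both genotypes 0 genes of these lists were called, as for the CRK members. There 6 of the 12 salicylate genes and 3 of the 9 WRKY factors were higher at an unadjusted p under 0.05 (3.16% of all tested genes).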

How the data were processed

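RNA-seq libraries of leaves, 3 of trm5-1 and 3 of wild type, were grouped by the genotype in the labels. Per the methods, the authors trimmed reads with Trim Galore 0.4.2, mapped them to TAIR10 with STAR 2.5.3, counted them per gene with featureCounts (settings not given in the sources used here) and tested them with DESeq2. The deposited raw counts were used as they stand. A deposited table of normalized values and the tRNA tables were not used. The table of 33610 genes was fitted in edgeR 4.0.16 (R 4.3.3) with filterByExpr, TMM, a quasi-likelihood F test and Benjamini-Hochberg adjustment over 19408 genes, and called at an adjusted p under 0.05. Standard errors were computed as the size of a log2 fold change over the root of F. The common biological coefficient of variation was 34.4%. DESeq2 1.42.0, other normalizations and filters, a replicate block and libraries left out were alternatives. Deviations from the group means of libraries with the same number correlated by -0.0355, -0.0208 and 0.0601 (replicates 2, 3 and 4), so the numbers were not taken as pairs. Sequences, positions and exons are from RefSeq TAIR10.1, matched by locus number for all 40 members. Identities are the shares of identical bases among the coding bases aligned by mafft 7.526. Permutation tests used scipy 1.17.1. Intervals and floors cover counting error only. The members and the gene lists were chosen with earlier results of these data known. All members are accounted for: values per library are given for those called and for those whose genotypes do not overlap, and the rest by range or number.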

Additional observations from a re-analysis of the deposited data

How the results depend on the processing

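The log2 fold changes of the 10 called members were above 0 under every alternative run, and the calls depended on which library was omitted. All 10 were still called without wild type replicate 2 and 9 without wild type replicate 3 (not CRK40), but 1 (CRK37) without trm5-1 replicate 2 and 0 without each of the other 3 libraries. The number of members called higher was 10, 20 with DESeq2, between 0 and 23 when 1 library was omitted, and 0 without replicate 4 of both genotypes. A replicate block gave 0, with 0 genes called in the whole table, and 22 members were higher at an unadjusted p under 0.05 (11.8% of all tested genes). RLE and the unfiltered table gave 10, upper quartile factors 12 and a minimum of 10 counts in every library 7 of 33 tested. The number called lower was 0, and 1 (CRK21) with DESeq2 or no filter. It was between 0 and 2 when 1 library was omitted, with CRK21 and CRK30 called without wild type replicate 2 and CRK29 without wild type replicate 3. Members near no difference changed sign. CRK28 had a log2 fold change of 0.04 with the block and between -0.53 and 0.46 when 1 library was omitted. In the same fits CRK22 ran between -0.16 and 0.68, CRK34 between -0.0 and 0.52, CRK42 between -0.42 and 0.04, CRK10 between -0.07 and 0.69, CRK31 between -0.33 and 1.22 and CRK13 between -0.08 and 0.92. Between 13 and 19 of the 27 neighbour pairs did not overlap under other pseudocounts or with libraries omitted. The share of all consecutive tested genes in those settings is not given here. With a library omitted fewer values have to be separate, so the range cannot be set beside the 40.4% found with all 6 libraries. The cause of the shifts between settings was not tested. CRK32 rests on 3 wild type counts in all.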
